A study of Rattus norvegicus with 6 samples.

Results

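The genes examined were the antioxidant and glutathione enzymes, which remove superoxide and peroxides, keep protein thiols reduced and couple glutathione to reactive compounds. They were taken by name from the array annotation: superoxide dismutases and catalase, glutathione peroxidases, peroxiredoxins, thioredoxins with their reductases and relatives, the enzymes of glutathione synthesis and recycling, glutathione transferases, Nqo1 and the heme oxygenases. The names matched 71 of 30367 probes and gave 64 of the 19295 gene names on the array, predicted loci included. For the 7 genes with several probes, the probe with the highest mean signal stood for the gene. Under an older name, the array lists Nme8 as Txndc3, and its Gsta3 and Gsta5 probes correspond to Gsta1 and Gsta3 of the current annotation. The names on the array are used here, and 61 of the 64 genes were matched to a current gene. All 64 are called enzymes for short, although they include Txnip, an inhibitor of thioredoxin.

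The samples were heart primordia of Wistar rat embryos (spelled Wister in the labels) on embryonic day 10, dissected before or after the start of the heartbeat. Primordia of the pre-heartbeat group had a flat center and came from embryos with fewer somites, and those of the post-heartbeat group had a raised center. No genotype or treatment differed, so the comparison is between neighboring stages of normal development, and the post-heartbeat group is also the older one. There were 3 samples per group with 1 array each, and how many primordia made up an array sample is not given in the sources used here. Signals are the processed intensities of 1-color Agilent arrays, on a log2 scale whose 0 is the 75th percentile of that array. That percentile was between 1146 and 1702 intensity units, and 0 spots were saturated. Tests were limited to probes that the 3 arrays of one group or the other all measured well above background, 19300 in number, and these covered 49 of the 64 enzymes. The arrays lay on 2 slides scanned separately. On slide 1 were pre-heartbeat replicate 1 with post-heartbeat replicates 1 and 2. The remaining arrays, pre-heartbeat replicates 2 and 3 with post-heartbeat replicate 3, were on slide 2. Because each slide held both groups, every comparison was also made with the slide as a block.

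Superoxide leaks from the respiratory chain and is turned into hydrogen peroxide by superoxide dismutases. Catalase splits the peroxide, and glutathione peroxidases and peroxiredoxins reduce it with electrons from glutathione or thioredoxin that NADPH supplies in the end. Many of these genes are induced by the transcription factor Nrf2 (Nfe2l2), which binds antioxidant response elements in promoters when its inhibitor Keap1 is modified. Cardiac muscle lives from oxidative metabolism and is known for its dependence on these enzymes, whereas the early embryo develops at low oxygen tension.

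Sequences upstream of the genes are shown first, since Nrf2 acts through an element in promoters. The core of the antioxidant response element, TGACNNNGC, was searched on both strands from 250 bases before to 50 bases after each annotated start (RefSeq, GRCr8). It was found for 17 of the 51 enzymes with a promoter in the table, or 33.3%, against 13.1% of 27457 genes. Of 40 tested enzymes with a promoter, 14 held the core. It was not found within these bases for Nqo1, Gclc and other tested enzymes, nor at the other annotated start of Txnrd1. The stretches below, 5′ to 3′ on the strand of the gene, show the core in capitals in 4 tested enzymes of different families, at chr5:135383746-135383804 on the plus strand for Prdx1, chr1:210769733-210769791 on the minus strand for Gstp1, chr7:22755949-22756007 on the minus strand for Txnrd1 and chr6:101230034-101230071 on the minus strand for Gpx2.
Prdx1: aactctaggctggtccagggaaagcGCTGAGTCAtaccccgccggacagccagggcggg
Gstp1: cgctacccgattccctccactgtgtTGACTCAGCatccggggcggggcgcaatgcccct
Txnrd1: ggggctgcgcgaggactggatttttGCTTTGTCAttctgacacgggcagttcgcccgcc
Gpx2: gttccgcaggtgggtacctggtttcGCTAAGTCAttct
The core began 135 bases before the start in Prdx1, 61 in Gstp1, 78 in Txnrd1 and 13 in Gpx2, and it was on the strand of the gene in Gstp1. The 250 bases before the start of Gpx3, the enzyme with the largest difference between the groups, are given for comparison (chr10:39529085-39529334, plus strand).
Gpx3: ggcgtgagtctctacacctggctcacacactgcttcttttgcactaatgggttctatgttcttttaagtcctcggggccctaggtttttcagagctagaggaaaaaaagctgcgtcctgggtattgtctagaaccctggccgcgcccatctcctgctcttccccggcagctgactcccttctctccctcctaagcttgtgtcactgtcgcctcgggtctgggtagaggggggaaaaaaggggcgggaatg
These letters do not include the core, which says nothing of elements elsewhere. A match is a description of the sequence and not a binding site.

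Of the 49 tested enzymes, Gpx3 was the one that differed between the groups by the selection of the methods, which asks for group means at least 1.5 fold apart and, by the Tukey HSD test, p under 0.05 with no adjustment. It was 1 enzyme selected as higher and 0 as lower, where 1.89% of all tested probes were selected as higher and 1.15% as lower. In limma with Benjamini-Hochberg adjustment over all probes, 0 enzymes were called at an adjusted p under 0.05, as were 0.14% of all probes. At an unadjusted p under 0.05 there were 4 enzymes (Gpx3, Txnip, Mgst1 and Nqo1), or 8.16% of those tested, beside 7.01% of all probes, and the lowest adjusted p was 0.122. When the slide was a block, limma called 1 enzyme higher, Gpx3, and 0 lower, with 1.61% of all probes called.

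Of the other tested enzymes, none was selected or called in these fits. The difference between group means (post minus pre, log2) had a median of -0.02 over the 49 enzymes and -0.03 over all tested probes, and its size had a median of 0.14 against 0.17. It was above 0 in 16 enzymes and below 0 in 33, or below 0 in 55.3% of all probes. This split depended on single arrays and on the slide. Without pre-heartbeat replicate 2, 26 enzymes were above 0 and 23 below, with a median of 0.02, and 49.2% of all probes were below 0. In the fit with the slide as a block, leaving out post-heartbeat replicate 3 left both groups on slide 1 alone. Then 38 enzymes were above and 11 below 0 (median 0.08), with 41.8% of all probes below 0. Leaving out pre-heartbeat replicate 1 left both groups on slide 2 alone. Then 10 enzymes were above and 39 below 0 (median -0.17), with 58.8% of all probes below 0. Pre-heartbeat replicate 2 gave the highest of the 6 values for 30 of the 49 enzymes (61.2%) and for 38.7% of all probes. The 95% interval of the difference from limma, taken for each gene alone, lay inside 1.5 fold in either direction for 33 enzymes (67.3%) and for 43.1% of all probes. Its half-width had a median of 0.38, so differences smaller than about that size could not be resolved with 3 arrays per group. The interval is not adjusted for the number of probes, and larger differences could also fail the adjusted test.

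**Figure D1:**
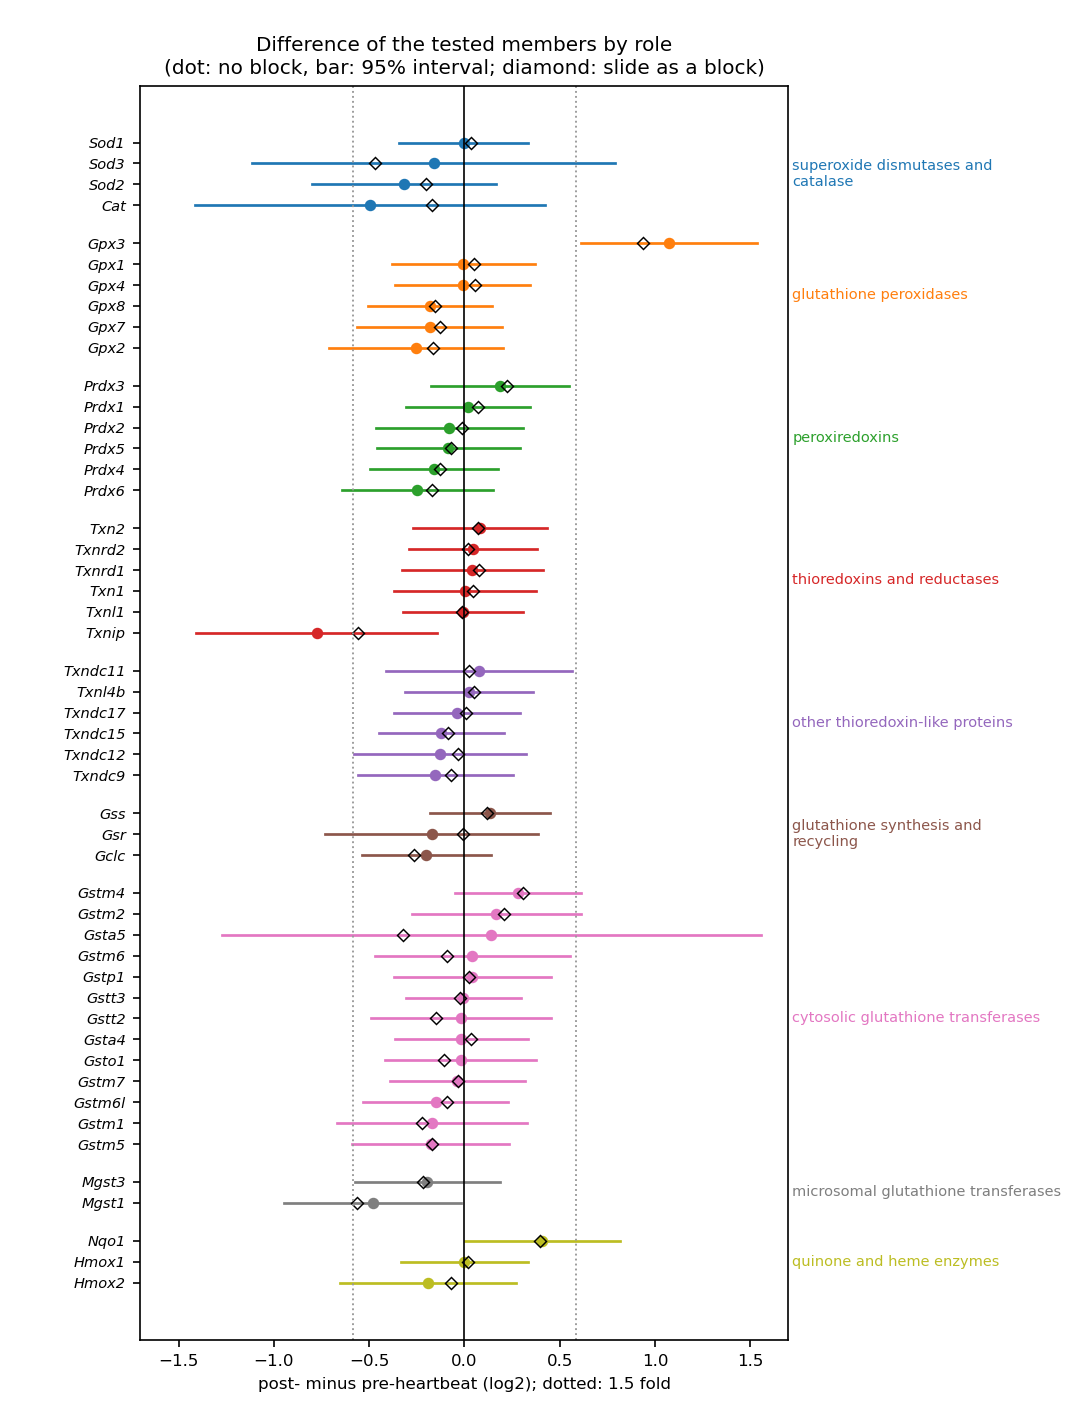
Difference between group means (post- minus pre-heartbeat, log2) of the 49 tested enzymes, grouped by role. Dots are the fit with no block with its 95% interval, diamonds the fit with the slide as a block, and dotted lines mark 1.5 fold. Gpx3 lies at 1.07, apart from the other enzymes, which lie between -0.78 and 0.41.

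Among the glutathione peroxidases, Gpx3, the secreted plasma form that reduces peroxides outside the cell, was 2.11 fold higher in the post-heartbeat group. Its log2 signal was -1.16, -1.48 and -1.47 in pre-heartbeat replicates 1 to 3, and -0.11, -0.14 and -0.64 in post-heartbeat replicates 1 to 3. All post-heartbeat arrays were above all pre-heartbeat arrays. The difference was 1.07 (95% interval 0.61 to 1.54), with an adjusted p of 0.122 in limma and an exact permutation p of 0.1 (two-sided), the smallest that 3 against 3 arrays can give. With the slide as a block it was 0.94 (0.63 to 1.24), with an adjusted p of 0.0195 in limma. Within slide 1 it was 1.03 and within slide 2 it was 0.84, and the 2 slides differed by -0.42 (slide 2 minus slide 1, adjusted p = 0.0669 in limma). In that fit, the call was lost when pre-heartbeat replicate 1, post-heartbeat replicate 1 or post-heartbeat replicate 3 was left out (limma adjusted p = 0.266, 0.0602 and 0.204). Calls over all probes fell with these omissions too, from 310 to 6, 139 and 1. The difference of Gpx3 stayed between 0.84 and 1.04 over all 6 omissions. The probe lies at chr10:40316128-40317595 of rn4 on the plus strand in the array annotation. Its 60 bases cover 1468 bases of the genome, so that it bridges at least 1 intron.

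The other tested glutathione peroxidases had differences of at most 0.25 in size. Gpx4, which reduces lipid peroxides in membranes, had signals of 4.69, 5.06 and 4.99 before and 4.86, 4.92 and 4.93 after heartbeat initiation, a difference of -0.01 (-0.36 to 0.35). The cytosolic Gpx1, which takes hydrogen peroxide, had 3.94, 4.40 and 4.17 before and 4.13, 4.20 and 4.16 after, a difference of -0.01 (-0.38 to 0.37). For both, the values of the post-heartbeat group lay inside the range of the pre-heartbeat group, and a change of 1.5 fold was outside the interval. Gpx2, Gpx7 and Gpx8 had differences of -0.25, -0.18 and -0.18, all with an adjusted p of 0.866 in limma, and the second probe of Gpx2 gave -0.18. Gpx7 and Gpx8 are forms of the endoplasmic reticulum. Gpx5 and Gpx6 were not well above background on any array.

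**Figure D2:**
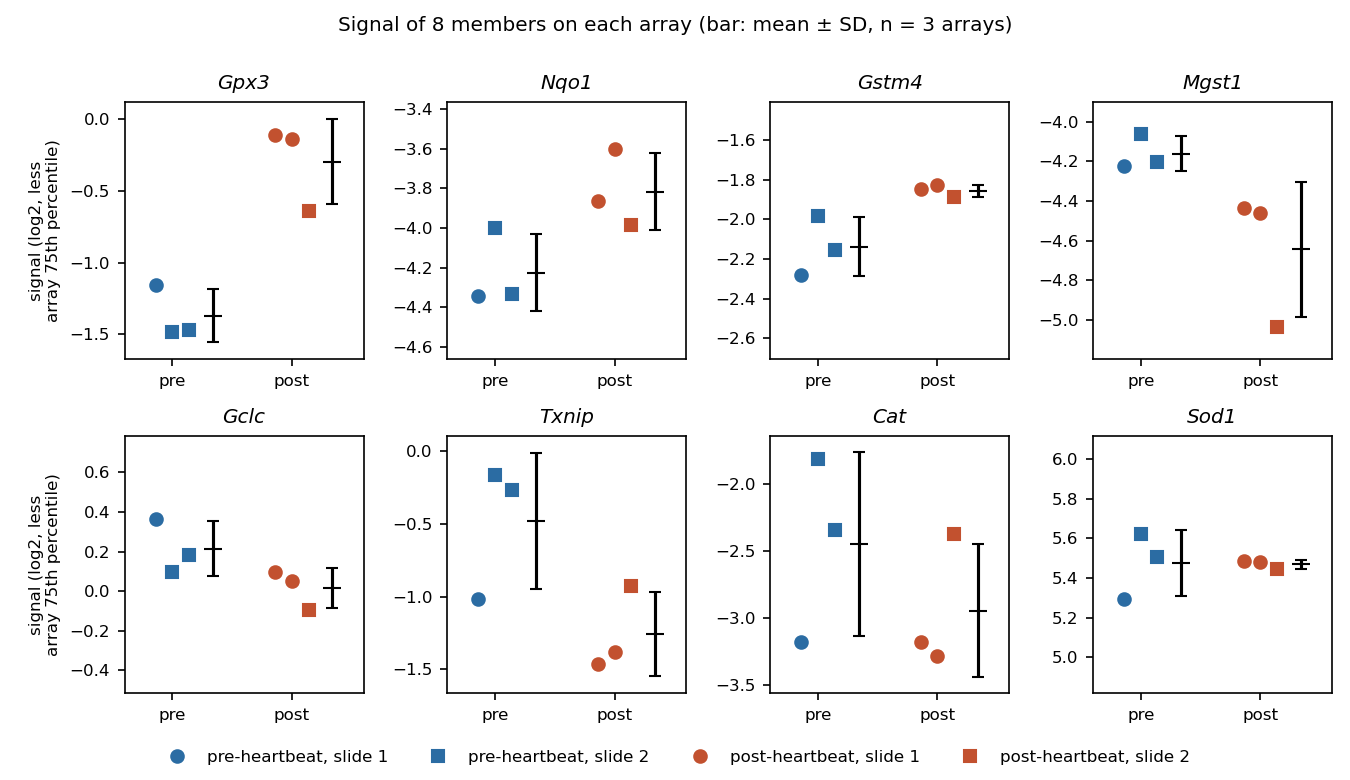
Signal of 8 enzymes on each array (log2, less the 75th percentile of the array; the axes differ in position and at times in range). Blue is the pre-heartbeat and orange the post-heartbeat group, circles are slide 1 and squares slide 2, and bars give mean ± SD (n = 3 arrays). Groups do not overlap for Gpx3, Nqo1, Gstm4, Mgst1 and Gclc, while Cat and Txnip overlap by group and separate by slide.

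Superoxide dismutases and catalase included no gene that passed the test, and all 4 had differences at or below 0 (-0.50 to -0.005). Sod1, the cytosolic copper and zinc enzyme, had signals of 5.30, 5.62 and 5.51 before and 5.48, 5.48 and 5.45 after heartbeat initiation. The difference was -0.005 (-0.34 to 0.33) and was above 0 in the fit with the slide as a block (0.03), so it has no settled sign. Sod2, the manganese enzyme of the mitochondrial matrix, had -1.62, -1.38 and -1.45 before and -2.18, -1.75 and -1.47 after. Post-heartbeat replicate 3 of Sod2 fell among the pre-heartbeat arrays, and the difference of -0.32 (-0.80 to 0.17) had an adjusted p of 0.866 in limma. Sod3, the extracellular form, differed by -0.16 (-1.11 to 0.79). Cat, the peroxisomal enzyme that splits hydrogen peroxide, had signals of -3.18, -1.82 and -2.35 before and -3.18, -3.28 and -2.38 after. The 3 arrays of slide 1 were the 3 lowest of Cat in either group. Its difference between groups was -0.50 (-1.41 to 0.42) without and -0.17 (-0.58 to 0.24) with the slide as a block, with adjusted p of 0.866 and 0.97 in limma.

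Peroxiredoxins, most of which reduce peroxides with electrons from thioredoxin, were all well above background on every array. Their differences lay between -0.25 (Prdx6) and 0.19 (Prdx3), with adjusted p of 0.866 or more in limma. Prdx1 had signals of 3.48, 3.67 and 3.72 before and 3.61, 3.58 and 3.72 after heartbeat initiation, a difference of 0.02 (-0.31 to 0.34). Prdx2, abundant in red cells, had 4.97, 5.44 and 5.28 before and 5.17, 5.13 and 5.15 after, a difference of -0.08 (-0.46 to 0.30). In both, pre-heartbeat replicate 1 was the lowest of its group, and the group ranges overlapped. Prdx3, the mitochondrial peroxiredoxin, and Prdx4, that of the endoplasmic reticulum, lay on opposite sides of 0 (0.19 and -0.16), each by less than its interval.

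The thioredoxins and their reductases had differences within 0.08 of 0, and Txnip, an inhibitor of the pathway, had lower means after heartbeat initiation on each slide. Txn1, the cytosolic thioredoxin, had signals of 4.86, 5.28 and 5.16 before and 5.17, 5.13 and 5.02 after heartbeat initiation, a difference of 0.004 (-0.37 to 0.38). Txnrd1, the cytosolic reductase that recharges it with NADPH, had -0.71, -0.56 and -0.69 before and -0.46, -0.85 and -0.53 after, a difference of 0.04 (-0.33 to 0.41). The second probe of Txnrd1 gave -0.13, so its probes differed in sign within their error. The mitochondrial pair Txn2 and Txnrd2 had differences of 0.08 and 0.04.

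Txnip binds and inhibits thioredoxin, restrains glucose uptake and is induced by glucose. Its signal was -1.01, -0.16 and -0.27 before and -1.46, -1.38 and -0.93 after heartbeat initiation. The groups overlapped through pre-heartbeat replicate 1 and post-heartbeat replicate 3, which lay on different slides. The difference was -0.78 (-1.41 to -0.14), with an unadjusted p of 0.0232 and an adjusted p of 0.534 in limma, and the exact permutation p was 0.2. It was -0.41 within slide 1 and -0.71 within slide 2. With the slide as a block it was -0.56 (-0.88 to -0.24), with an adjusted p of 0.132 in limma. No setting called this difference, and the adjusted p ranged from 0.132 to 1. Txnip was among the enzymes that differed between slides.

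Among the other thioredoxin-like proteins, 6 of 10 were tested and each interval lay inside 1.5 fold. Txndc17, a cytosolic relative of thioredoxin, had signals of 2.88, 3.14 and 2.97 before and 2.94, 2.89 and 3.05 after heartbeat initiation, a difference of -0.04 (-0.37 to 0.29). The remaining 5 had differences between -0.15 (Txndc9) and 0.08 (Txndc11).

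Glutathione synthesis and recycling had 3 tested genes, and none passed the test. Gclc, the catalytic subunit of the rate-limiting ligase, had signals of 0.36, 0.10 and 0.18 before and 0.09, 0.05 and -0.10 after heartbeat initiation. The groups did not overlap, by a gap that was small beside their spread, and the difference was -0.20 (-0.54 to 0.14) with an adjusted p of 0.866 in limma. Gclm, the modifier subunit, was not well above background on any array, with measured signals of -7.40, -7.83 and -8.40 before and -6.79, -6.69 and -7.96 after, so that its level was not measured. Gss, which completes glutathione, had -0.54, -0.42 and -0.54 before and -0.27, -0.36 and -0.46 after, a difference of 0.14 (-0.18 to 0.45). Its groups overlapped through pre-heartbeat replicate 2 alone. Gsr, the reductase that regenerates glutathione with NADPH, had -3.56, -2.75 and -3.12 before and -3.49, -3.40 and -3.06 after, a difference of -0.17 (-0.73 to 0.38) that became -0.005 with the slide as a block.

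Of the 19 cytosolic glutathione transferases, which attach glutathione to electrophiles, 13 were tested. The differences of these lay between -0.18 and 0.28, with 5 above and 8 below 0. Gsta4, which clears the lipid peroxidation product 4-hydroxynonenal, had signals of 5.23, 5.58 and 5.42 before and 5.32, 5.44 and 5.42 after heartbeat initiation, a difference of -0.02 (-0.37 to 0.33). Gstm4 had -2.28, -1.98 and -2.15 before and -1.85, -1.83 and -1.89 after, and its groups did not overlap. Its difference was 0.28 (-0.05 to 0.61), with an adjusted p of 0.834 in limma, but the second Gstm4 probe gave 0.08 with overlapping groups. Gsta5 had the widest interval (-1.27 to 1.56), since post-heartbeat replicate 3 (-6.67) was below and post-heartbeat replicates 1 and 2 (-4.46 and -4.36) were above all pre-heartbeat arrays. Gsta5 was well above background on 3 of 3 pre-heartbeat but only 2 of 3 post-heartbeat arrays. It was tested because of the pre-heartbeat group. The Gstm genes are close paralogs. Between probes of different enzymes, at most 36 of 60 bases matched in an ungapped alignment, and cross-hybridization with transcripts of paralogs was not tested.

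The microsomal transferases lie in membranes. Mgst1 had signals of -4.22, -4.06 and -4.20 before and -4.43, -4.46 and -5.04 after heartbeat initiation, and all post-heartbeat arrays were below all pre-heartbeat arrays. The difference was -0.48 (-0.95 to -0.02), with an adjusted p of 0.688 in limma, and with the slide as a block it was -0.56 (-0.97 to -0.16) with an adjusted p of 0.253. It was -0.23 within slide 1 and -0.90 within slide 2, where post-heartbeat replicate 3 was the lowest array. Without that array it was -0.29, and with normexp background correction it was -0.26. Mgst3 had -0.09, 0.18 and 0.05 before and -0.04, -0.03 and -0.37 after, a difference of -0.19 (-0.58 to 0.19).

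Nqo1, a quinone reductase and a classical target of Nrf2, had signals of -4.34, -4.00 and -4.33 before and -3.86, -3.60 and -3.98 after heartbeat initiation. All post-heartbeat arrays were above all pre-heartbeat arrays, although the highest pre-heartbeat and the lowest post-heartbeat values differed by little. The difference was 0.41 (0.002 to 0.81), with an adjusted p of 0.712 in limma, and it was 0.61 within slide 1 and 0.18 within slide 2. With normexp background correction it was 0.18. Hmox1, the inducible heme oxygenase and another Nrf2 target, had -1.69, -1.40 and -1.57 before and -1.48, -1.58 and -1.60 after. The difference of Hmox1 was -0.001 (-0.34 to 0.33), with no settled sign. Hmox2, the constitutive form, had 1.03, 1.68 and 1.43 before and 1.13, 1.10 and 1.33 after, a difference of -0.19 (-0.65 to 0.27).

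Counted by overlap alone, groups were separate with the post-heartbeat group higher for 3 of 49 enzymes (Gpx3, Nqo1 and Gstm4), beside 5.38% of all tested probes, and lower for 2 (Mgst1 and Gclc), beside 6.13%. These counts are near the shares of all probes. Of the 15 enzymes not tested, 12 were not well above background on any array. They were Gclm, Gpx5, Gpx6, Gsta3, Gstm3, Gsto2, Gstt1, Gstt4, Txndc2, Txndc3, Txndc8 and Txnrd3. The others passed on part of the arrays: Txndc16 on 2 arrays of each group, Mgst2 on 1 of each, and Gsta2 on 1 post-heartbeat array.

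Some enzymes differed between the slides. With the group in the fit, limma called 4 of the 49 enzymes different between slides, where 16.3% of all tested probes were called. Cat was higher on slide 2 by 0.97 (adjusted p = 0.0112 in limma), and Txnip by 0.65 (adjusted p = 0.0208 in limma). Gsta5 was lower on slide 2 by -1.39 (adjusted p = 0.0289 in limma), and Sod3 by -0.92 (adjusted p = 0.0349 in limma). For Gsta5 the fit took signals as measured, although it was well above background on only 2 of 3 post-heartbeat arrays. What differed between the slides besides the scan is not known from the labels.

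**Figure D3:**
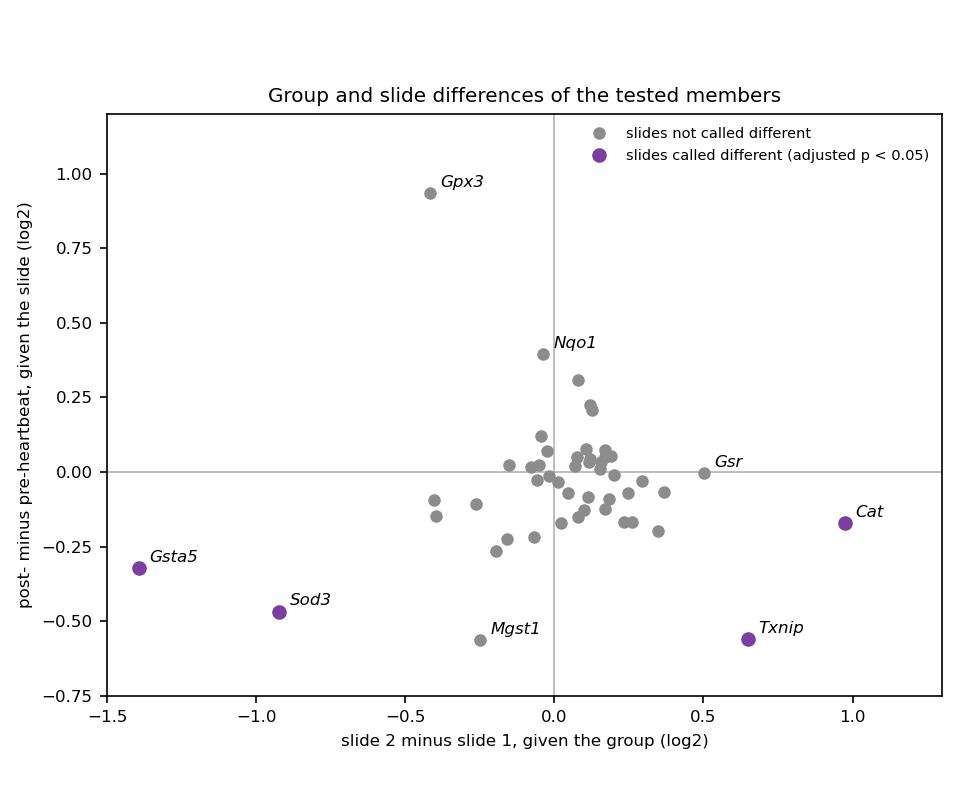
Each point is 1 of the 49 tested enzymes. The horizontal axis is the difference between slides given the group and the vertical axis the difference between groups given the slide, both in log2 from the same limma fit. Cat, Txnip, Gsta5 and Sod3 (purple) were called different between slides, and Gpx3 is the highest point, at 0.94.

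Among the genes that feed and control these enzymes, none passed the test without a block. Lists of NADPH supply, control of Nrf2, thiol repair, supply and use of glutathione, metal and selenium handling, and sources of oxidants held 81 tested genes that are not among the enzymes. Their differences had a median of -0.03, with 35 above and 46 below 0, and limma called 0 of them without a block. Nfe2l2 had 0.55, 1.44 and 0.98 before and 0.65, 0.74 and 1.15 after, a difference of -0.15 (-0.76 to 0.46) that was 0.04 with the slide as a block. Keap1 had -2.08, -2.48 and -2.20 before and -1.72, -2.01 and -2.21 after, a difference of 0.27 (-0.17 to 0.72). Maff, a small Maf protein that pairs with Nrf2 or acts as a repressor, was the single gene of the 81 in the selection of the methods, which took 1.89% of all probes as higher. It was well above background on 0 of 3 pre-heartbeat and 3 of 3 post-heartbeat arrays, and so was tested because of the group in which it was higher. By its measured signals it was 1.66 fold higher after heartbeat initiation, with an adjusted p of 0.354 in limma. Entering each pre-heartbeat array with its measured signal or with the lowest signal its detected probes reached, whichever was higher, left this difference unchanged. Me3, a mitochondrial malic enzyme that makes NADPH, was the single gene of the 81 that limma called with the slide as a block (adjusted p = 0.0421), where 1.61% of all probes were called. It too was tested because of the post-heartbeat group, being well above background on 1 of 3 pre-heartbeat and 3 of 3 post-heartbeat arrays, and without the block its adjusted p was 0.54 in limma. Neither count is above the share of all probes. The metallothioneins Mt1a and Mt2A, named after their values were seen, had the lowest differences (-0.94 and -1.18). Their groups overlapped widely, and the adjusted p was 0.853 and 0.834 in limma.

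**Figure D4:**
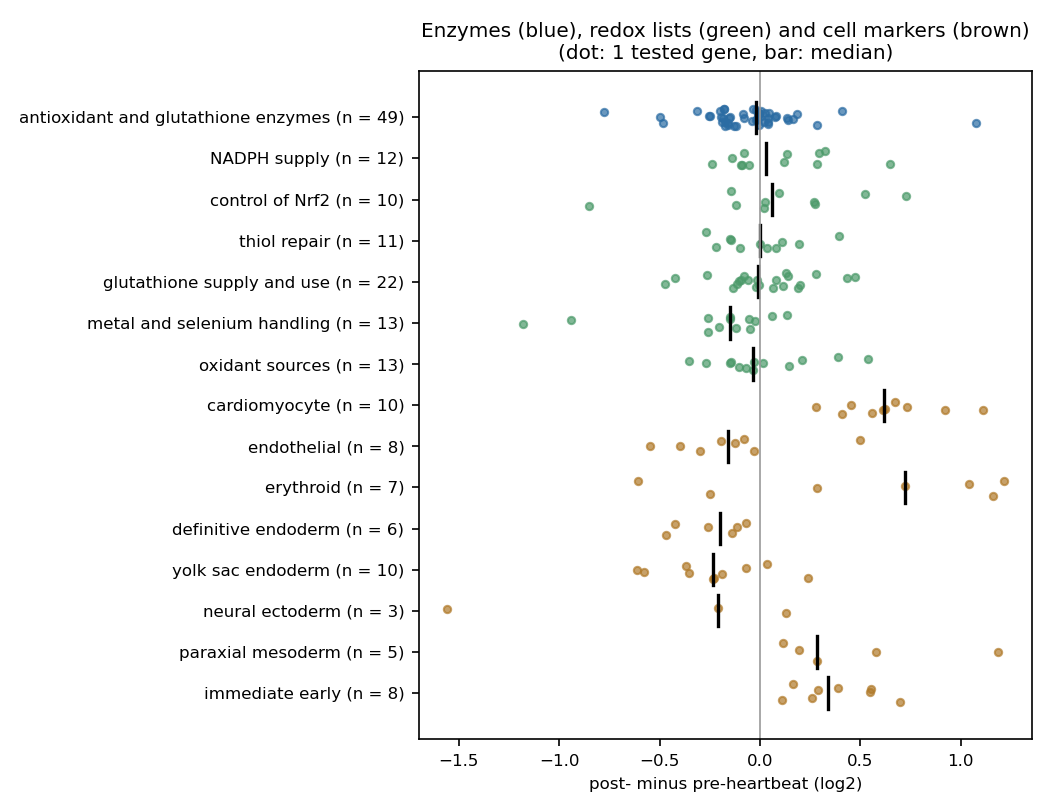
Difference between group means (post- minus pre-heartbeat, log2) of each tested gene of the enzymes, of 6 related lists (green) and of 8 marker lists (brown), with the median of each list as a bar. The enzymes have a median of -0.02, and the 10 cardiomyocyte markers all lie above 0 with a median of 0.62.

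Markers of cell types in or near the heart primordium were measured on the same arrays, since in a whole tissue a smaller number of cells of a type and less RNA per cell cannot be told apart. Cardiomyocyte markers were above background on all arrays, 10 of 10 had higher means after heartbeat initiation, and their mean signal was 3.23 to 3.64 before and 4.09 to 4.12 after. Myh6, Myh7 and Tnni1 of this list were in the selection of the methods, which took 1.89% of all tested probes as higher. Of 7 tested erythroid markers 5 had higher means, Hbb was selected (1.22, adjusted p = 0.361 in limma), and the mean signal of the list was -2.65 to -1.69 before and -1.99 to -1.63 after. The erythroid factor Gata1 was not well above background on any array. Means were also higher for 5 of 5 tested markers of paraxial mesoderm (median 0.29) and 8 of 8 immediate early genes (median 0.34), none of them called in limma. Markers of endothelium (median -0.16), definitive endoderm (-0.20) and yolk sac endoderm (-0.23) had mostly lower means. The median of the yolk sac list was -0.53 with the slide as a block. Of its 10 tested markers, 7 were called lower on slide 2, beside 16.3% of all tested probes called in either direction. Of 3 tested neural markers, 1 had a higher and 2 had lower means (median -0.21). Among them Otx2, a gene of anterior ectoderm and endoderm, was called lower by -1.56 (adjusted p = 0.0199 in limma), beside 0.14% of all probes called. The means of the cardiomyocyte, paraxial mesoderm and immediate early lists and of most erythroid markers were higher in the post-heartbeat group, as was Gpx3, and their part in the difference of Gpx3 was not tested.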

How the data were processed

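The authors extracted total RNA from heart primordia, labeled cRNA with Cy3, hybridized it to 1-color rat arrays and quantified the spots with Agilent Feature Extraction 10.7.3.1. The deposited processed signal is a background-subtracted intensity, without normalization across arrays. A linear ratio per probe was deposited too, shifted to the 75th percentile and divided by a baseline, which was used as an alternative.

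Control spots and outlier spots were left out, log2 signals less the 75th percentile of all other spots were averaged per probe, and a probe counted as well above background if at least 0.5 of its spots did. Groups were compared with limma 3.58.1 in R 4.3.3 (data.table, version 1.17.8) without covariates, with Benjamini-Hochberg adjustment over 19300 probes and a threshold of 0.05. With 2 groups, the Tukey HSD test of the methods equals the pooled comparison of means. Replicates are separate samples by their labels, and nothing says which embryos they came from, so p-values measure the spread between these samples. The number of arrays limits the precision.

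Enzymes given with all values were those called or selected, the 3 largest rises and falls without overlap, the brightest of each role and a list of standard enzymes. Gsta5 and Sod3 were named after their values were seen. A further gene that the rule names is not reported here. The enzymes and lists were chosen with earlier results of these data known. Alternatives were the slide or the replicate number as a block, normexp (offset 50), quantile normalization, the percentile over probes detected on all arrays, other filters, the ratios of the authors, an intensity trend, the mean of a gene's probes, a fold threshold of 2, other tests in the calls and the selection, and leaving out each array. Omission of arrays and other normalizations with the slide as a block were added after seeing the data, for Gpx3, the selection and the counts of signs. The fit was tested on simulated data. Positions of probes are those of rn4 in the array annotation, and no genome of that build was used here to place them in exons.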

Additional observations from a re-analysis of the deposited data

How the results depend on the processing

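With the slide as a block, 1 enzyme (Gpx3) was called higher in limma, and under the settings without that block 0 were called in either direction. When single arrays were left out without that block, the selection of the methods held 1 to 2 enzymes as higher and 0 to 1 as lower. The other one higher was Gsta5 without post-heartbeat replicate 3, and the one lower was Txnip without pre-heartbeat replicate 1. It held 1 as lower (Txnip) with the unadjusted limma p. With the slide as a block, Txnip, Mgst1 and Gsta5 were selected as lower without pre-heartbeat replicate 1, and Txnip without post-heartbeat replicate 2. Gsta5 was well above background on only 2 of 3 post-heartbeat arrays, and these fits took its signals as measured. Without a block, Gpx3 was 0.98 to 1.25 higher when single arrays were left out, with adjusted p of 0.111 to 0.534 in limma. Under the settings with all arrays it was 0.85 to 1.07 higher, with adjusted p of 6.8e-04 to 0.25 in limma. Same-numbered arrays of both groups were not treated as pairs. Their deviations from the group means correlated by 0.648, -0.277 and 0.494 over probes, positive where they shared a slide. These values cannot tell pairing by number from sharing a slide. With the replicate number as a block, 144 probes were called against 27, 0 of them enzymes, and Gpx3 had an adjusted p of 0.0526 in limma. Of 360 values of named enzymes, 313 kept their direction and side of the threshold, 6 of Gpx3 came past the threshold and 41 changed sign.

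The sign changed in enzymes with differences between -0.08 and 0.04 and, without pre-heartbeat replicate 2, in Gsr (-0.17). Under the slide block the difference was 0.034 in Sod1, 0.054 in Gpx4, 0.011 in Txndc17, 0.035 in Gsta4, 0.0495 in Gpx1 and 0.021 in Hmox1. With normexp it was 0.025 in Sod1, -0.00015 in Txn1 and 0.0018 in Gsta4, and with quantile normalization 0.066 in Sod1, 0.049 in Gpx4, 0.041 in Gsta4 and 0.046 in Gpx1. With the percentile over detected probes it was -0.011 in Txn1, with the ratios of the authors -0.014 in Txn1 and -0.00053 in Prdx1, and with the mean of a gene's probes 0.0084 in Gpx4 and -0.042 in Txnrd1. When single arrays were left out, the range was -0.095 to 0.069 in Sod1, -0.12 to 0.064 in Gpx4, -0.21 to 0.028 in Prdx2, -0.12 to 0.095 in Txn1, -0.098 to 0.032 in Txndc17, -0.11 to 0.070 in Gsta4, -0.12 to 0.11 in Gpx1, -0.054 to 0.065 in Prdx1, -0.033 to 0.16 in Txnrd1, -0.38 to 0.023 in Gsr and -0.070 to 0.078 in Hmox1. Among larger differences, none of them called, values moved by over 1.5 times in Cat (-0.86 to -0.18 when single arrays were left out), Sod2 (-0.48 to -0.13), Hmox2 (-0.36 to -0.04), Mgst3 (-0.26 to -0.08), Gclc (-0.26 to -0.12) and Gstm4 (0.18 with the mean of its probes). They did so too in Nqo1 (0.18 with normexp), Mgst1 (-0.26 with normexp) and Gss (as low as 0.088). The cause was not tested, and the values of these settings lay inside the intervals given above. With 3 arrays per group and a median half-width of 0.38 of the unadjusted intervals, smaller differences were not detectable. Larger differences were also not called without a block, the largest being 1.07 in Gpx3 (adjusted p = 0.122 in limma). Enzymes not well above background have no measured level.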
